A study of Mus musculus with 6 samples.

Results

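Splicing factors and heterogeneous nuclear ribonucleoproteins (hnRNP proteins) were examined as 55 genes, found by gene name in the authors' deposited tables among 11024 listed genes with Enniatin A (EnnA) and 11305 with 17-AAG. The names taken were those of the SR proteins (Srsf with a number, 10 genes), Tra2 (2), hnRNP proteins (18), polypyrimidine tract binding proteins (Ptbp, 3), U2AF (3), subunits of SF3a and SF3b (8) and proteins of the small nuclear ribonucleoproteins (Snrp, 11), and each table lists the same 55 genes. Further genes of these families stand under the older symbols Hnrpdl, Hnrpll and 0610009D07Rik (Sf3b6) and were not taken by the name, while Snrpn and Srsf12 were not analysed here. Transcripts of E0771, a mouse breast cancer cell line of C57BL/6 background, were sequenced in 3 groups of 2 libraries each. All cells were grown for 48 h in RPMI medium with serum. The groups were EnnA at 7.4 µM for 24 h, 17-AAG at 0.5 µM for 24 h, and the solvent DMSO, for which the labels give no exposure time. EnnA is a mycotoxin made by Fusarium species, a ring of alternating amino and hydroxy acids that acts as an ionophore. The ansamycin 17-AAG, derived from geldanamycin, inhibits HSP90 by occupying its nucleotide site. The tables give 1 value per gene and group, in FPKM, which scales fragments mapped to a gene by its transcript length and the size of the library, pooled by the authors over the 2 libraries, so no standard deviation stands beside a level and the depth of each library is unknown.

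Splicing removes introns from RNA precursors in the nucleus and is carried out by the spliceosome, which is built from small nuclear ribonucleoproteins (snRNPs) and many further proteins. U1 snRNP pairs with the donor site of an intron, U2AF and the SF3a and SF3b subunits of U2 snRNP mark the acceptor site and the branch point, and a ring of Sm proteins surrounds the RNA of most snRNPs. SR and Tra2 proteins bind exons and mostly favour their use, whereas many hnRNP and Ptbp proteins bind RNA and can cause exons to be skipped. Many genes of SR and hnRNP proteins limit their own output by splicing in an exon that marks the transcript for nonsense-mediated decay. The deposited tables hold values per gene and not per isoform, so exon use was not measured here.

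Of the defining markers of luminal mammary epithelium, 4 of 9 were listed in each table. Krt8 was called lower with EnnA, at 11.2 FPKM in EnnA cells and 17.7 FPKM in DMSO cells. Epcam was not called, at 1.85 FPKM in EnnA cells and 1.61 FPKM in DMSO cells. Esr1 stood at 1.57 FPKM in EnnA cells and 0.559 FPKM in DMSO cells and was called higher, and Erbb2 stood at 1.19 FPKM in EnnA cells and 3.0 FPKM in DMSO cells and was called lower. In the 17-AAG comparison Krt8 was called higher, at 29.3 FPKM in 17-AAG cells and 19.3 FPKM in DMSO cells. Epcam was not called in that comparison, at 1.82 FPKM in 17-AAG cells and 1.77 FPKM in DMSO cells. In it Esr1 was called higher, at 1.09 FPKM in 17-AAG cells and 0.613 FPKM in DMSO cells, and Erbb2 was not called, at 4.67 FPKM in 17-AAG cells and 3.28 FPKM in DMSO cells. Krt18, Krt19 and Cdh1 had no listed value, and 1 of 4 basal markers was listed. This was Acta2, called lower with EnnA at 34.5 FPKM in EnnA cells and 133.1 FPKM in DMSO cells, and not called with 17-AAG at 169.3 FPKM in 17-AAG cells and 145.8 FPKM in DMSO cells. Vim, a mesenchymal filament gene, was called lower with each compound. It stood at 1209 FPKM in EnnA cells and 2746 FPKM in DMSO cells, and at 2154 FPKM in 17-AAG cells and 3009 FPKM in DMSO cells. The part of these markers in the results below was not tested. Of 4 leukocyte markers only Lyz2 was listed. It was called lower with EnnA, at 8.73 FPKM in EnnA cells and 12.2 FPKM in DMSO cells. With 17-AAG Lyz2 was not called, at 15.8 FPKM in 17-AAG cells and 13.3 FPKM in DMSO cells. The tables were normalized separately, and at the median gene the DMSO value of the 17-AAG comparison was 1.10 times that of the EnnA comparison.

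With EnnA, 5 of 10 SR genes were lower and 2 higher, and 5 of 18 hnRNP genes were lower and 1 higher. Of the U2AF genes 2 of 3 were higher, as were 4 of 8 SF3a and SF3b genes, with 0 lower in either family. The hnRNP A and B group had 3 of 5 genes lower with each compound. No test of a difference between families was run. With 17-AAG 8 of 11 Snrp genes were lower. Calls rest on a q under 0.05 in the authors' deposited table (Cuffdiff), and changes are log2 ratios of FPKM + 1, compound over DMSO, each with an implied standard error (SE) worked back from the deposited p. In whole cultures a smaller share of cells with a transcript and less of it per cell cannot be told apart. At that threshold EnnA gave 11 higher and 12 lower calls among the 55 genes, which is 41.8% of them, where 49.2% of all genes listed were called (24.3% higher and 24.9% lower). With 17-AAG 2 were higher and 13 were lower, 27.3% of the members, where 31.6% of all listed genes were called (15.6% higher and 16.1% lower). In either direction together the members' share at a q under 0.05 was below that of all genes in both tables, whereas with 17-AAG the share called lower was 23.6% of the members and 16.1% of all genes. At a q under 0.01, 22 of the 55 members were called with EnnA, a share slightly above the 38.4% of all genes. With 17-AAG 9 of the 55 were called at that q, beside 20.2% of all genes. At a q under 0.05 with at least a 2-fold change, 3 of the 55 were called with EnnA, beside 8.32% of all genes. With 17-AAG 0 were, beside 2.31% of all genes, where 22 members had an unadjusted Cuffdiff p under 0.05. The median log2 change of the 55 members was -0.09 with EnnA and -0.13 with 17-AAG, beside a median over all listed genes of -0.01 in each table.

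**Figure D1:**
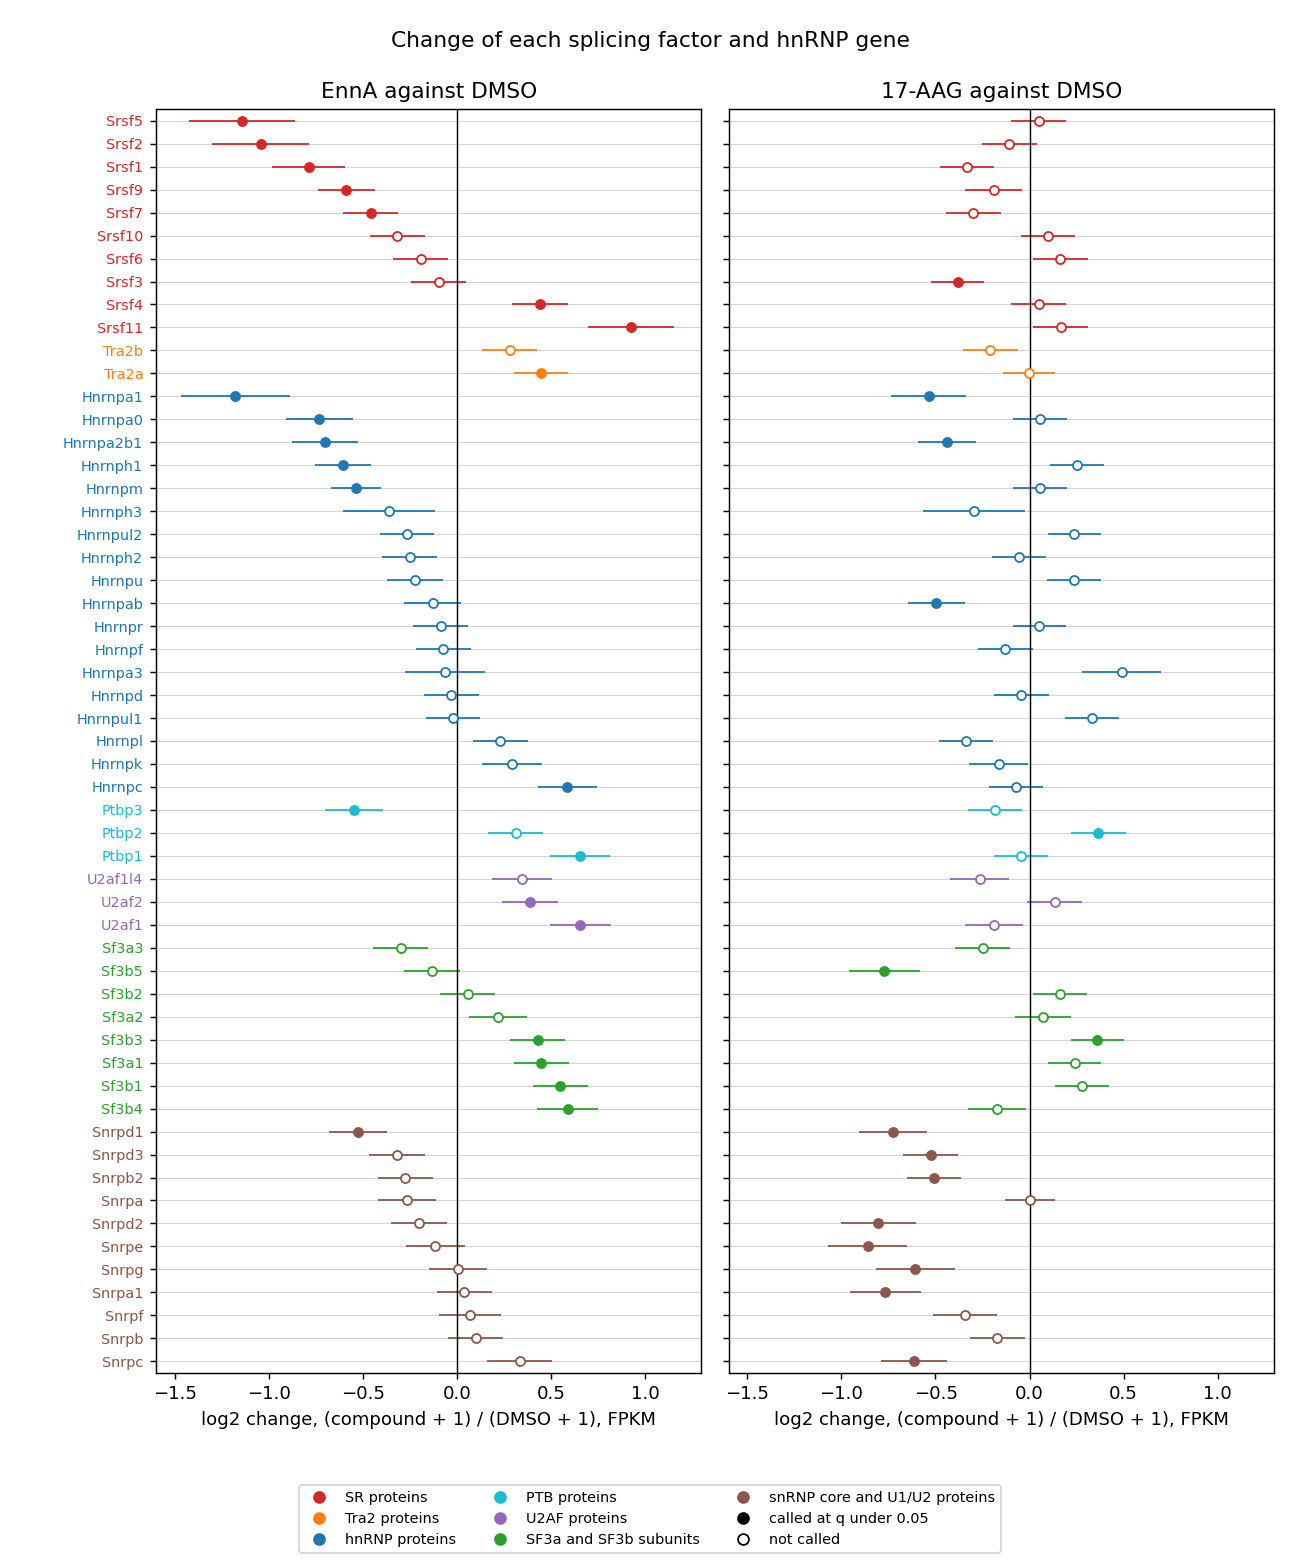
Log2 change of each of the 55 genes (FPKM + 1, compound over DMSO) with EnnA on the left and 17-AAG on the right; bars are the implied SE, and filled points are called at q under 0.05. SR genes spread from -1.14 to 0.93 with EnnA, and 10 of the 11 Snrp genes lie below 0 with 17-AAG.

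These are abundant transcripts. All 55 members were at 1 FPKM or more in every group, and 26 of them fell in the top decile of mean FPKM in each table. The highest level was that of Hnrnpa2b1, with 527 FPKM in EnnA cells and 857.4 FPKM in DMSO cells, followed by Snrpd3 with 396.7 FPKM in EnnA cells and 494.7 FPKM in DMSO cells. The lowest was that of Hnrnph3, in a locus shared with Rufy2, with 7.37 FPKM in EnnA cells and 9.76 FPKM in DMSO cells. Sf3b4 and Sf3a2 were the next lowest in DMSO cells at 13.7 and 15.8 FPKM. Abundance may bear on the comparison because the median change of abundant genes was above 0 with EnnA and below 0 with 17-AAG. Whether this pattern came from the compounds or from the libraries and their normalization was not tested. Over all listed genes in the top decile of mean FPKM the median log2 change was 0.23 with EnnA and -0.28 with 17-AAG. In that decile 38.3% were called higher and 12.9% lower with EnnA, and 4.16% higher and 39.3% lower with 17-AAG. Relative to the median of their own decile, the members' median log2 change was -0.26 with EnnA and 0.10 with 17-AAG, where the value without that subtraction was below 0. The part of abundance in the result for a given gene was not tested.

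**Figure D2:**
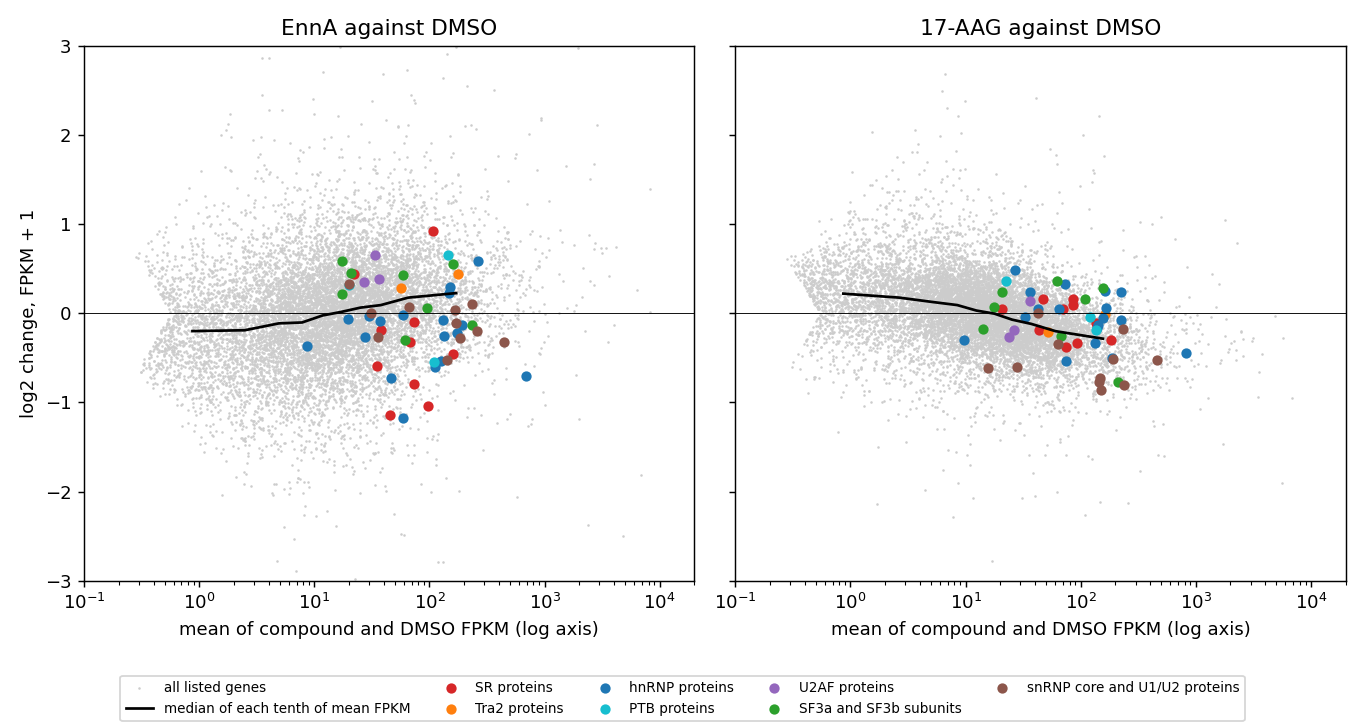
Log2 change (FPKM + 1) against the mean of compound and DMSO FPKM on a log axis, for all listed genes within the axes (grey), with the median of each decile (line) and the 55 members coloured by family. The line climbs to 0.23 in the top decile with EnnA and drops to -0.28 with 17-AAG.

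SR proteins carry RNA recognition motifs and a tail rich in arginine and serine, and bind exonic enhancers. Of 10 SR genes, 5 were lower and 2 higher with EnnA, and the family's median log2 change was -0.39. Srsf5 had 28.2 FPKM in EnnA cells, against 63.3 FPKM in DMSO cells, a log2 change of -1.14 with an implied SE of at most 0.28. Srsf2 (SC35), which also takes part in transcription elongation, had 62.4 FPKM in EnnA cells, against 129.8 FPKM in DMSO cells (log2 change -1.04, implied SE at most 0.26). Srsf1 (SF2/ASF), an oncoprotein in mammary cells, had 53.8 FPKM in EnnA cells, against 93.8 FPKM in DMSO cells (log2 change -0.79, implied SE at most 0.19). The 3 genes were the lowest of the family by change, and Srsf9 (-0.59) and Srsf7 (-0.46), which acts also in RNA export, were lower by less. Srsf11, an SR-related gene of uncommon domain make-up, went the other way, with 139.9 FPKM in EnnA cells, against 73.2 FPKM in DMSO cells (log2 change 0.93, implied SE at most 0.23). Srsf4 was also higher (0.44, implied SE 0.15). Srsf10, a splicing repressor when dephosphorylated, Srsf6 and Srsf3 did not pass the test, at log2 changes of -0.32, -0.19 and -0.10. Relative to the median of each gene's decile of mean FPKM the family's median was -0.59.

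With 17-AAG 1 of the 10 SR genes was called lower. It was Srsf3, the smallest SR protein of the family, with 64.1 FPKM in 17-AAG cells, against 83.9 FPKM in DMSO cells (log2 change -0.38, implied SE 0.14). Srsf5 had 71.7 FPKM in 17-AAG cells and 69.4 FPKM in DMSO cells, and Srsf2 had 132 FPKM in 17-AAG cells and 142.2 FPKM in DMSO cells. The log2 changes of the 10 genes with 17-AAG ranged from -0.38 to 0.17, a narrower range than with EnnA. RefSeq names a pseudogene copy of Srsf3, so its value is uncertain.

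The stretch of 250 bases before the start site of the SR and hnRNP genes that changed most with EnnA is shown because these members moved furthest, 3 of them down (Srsf5, Srsf2, Hnrnpa1) and 1 up (Srsf11). Sequences are from RefSeq, build GRCm38.p6, 5′ to 3′ on the gene's strand, and capitals mark matches on either strand to any of 7 motifs searched. These were the box named after its letters CCAAT, the GC box with the letters GGGCGG, the ETS factor site with the letters CCGGAAG, the E box with the letters CACGTG, the cAMP response element with the letters TGACGTNA, the composite element of ATF4 and C/EBP factors with the letters TGATGNAA, and the core of the heat shock element with the letters GAANNTTC. They lie at chr12:80945249-80945498, plus strand; chr11:116853095-116853344, minus strand; chr15:103240147-103240396, plus strand; and chr3:158036607-158036856, minus strand, where the first of 2 listed starts was used.
Srsf5: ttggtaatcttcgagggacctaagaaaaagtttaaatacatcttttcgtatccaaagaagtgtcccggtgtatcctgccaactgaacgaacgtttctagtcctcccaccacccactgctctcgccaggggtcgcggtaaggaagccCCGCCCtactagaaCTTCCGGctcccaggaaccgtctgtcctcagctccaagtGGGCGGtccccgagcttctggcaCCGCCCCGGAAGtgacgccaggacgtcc
Srsf2: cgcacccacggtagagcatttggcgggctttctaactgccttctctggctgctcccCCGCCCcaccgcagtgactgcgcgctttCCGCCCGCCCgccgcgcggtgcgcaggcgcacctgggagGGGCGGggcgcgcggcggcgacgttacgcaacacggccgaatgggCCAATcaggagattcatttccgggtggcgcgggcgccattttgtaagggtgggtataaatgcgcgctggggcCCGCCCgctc
Hnrnpa1: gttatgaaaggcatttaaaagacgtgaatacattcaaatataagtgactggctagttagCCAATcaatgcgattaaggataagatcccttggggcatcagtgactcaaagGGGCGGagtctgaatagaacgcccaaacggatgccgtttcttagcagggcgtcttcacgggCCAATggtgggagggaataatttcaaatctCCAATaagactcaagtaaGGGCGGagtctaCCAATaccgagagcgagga
Srsf11: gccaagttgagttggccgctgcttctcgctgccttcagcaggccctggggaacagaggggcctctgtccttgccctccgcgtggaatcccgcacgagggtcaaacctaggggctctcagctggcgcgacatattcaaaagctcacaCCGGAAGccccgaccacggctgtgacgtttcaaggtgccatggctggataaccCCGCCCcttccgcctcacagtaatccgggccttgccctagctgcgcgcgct
Srsf5 held 3 GC boxes and 2 ETS sites, the last GC box sharing bases with an ETS site. Srsf2 held GC boxes and a CCAAT box, Hnrnpa1 held 4 CCAAT boxes and 2 GC boxes, and Srsf11 held an ETS site and a GC box. Neither the 3 lower genes nor the higher gene held the E box, the cAMP response element, the ATF4 composite or the heat shock core in this window. A match is a description of letters and not evidence of binding.

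Over the 48 of 55 members with a RefSeq promoter, a GC box stood in 68.8% (33) of the 250-base windows, beside 32.9% of all 27025 promoters of the same length. The ETS site stood in 29.2% (14), beside 7.05% of all promoters, and was in 5 of 6 SF3 promoters and 4 of 10 SR promoters. The CCAAT box stood in 47.9% (23), beside 34.5%, and was in 12 of 17 hnRNP promoters. The cAMP response element stood in 12.5% (6) beside 2.65%, the heat shock core in 10.4% (5) beside 6.78%, the E box in 8.33% (4) beside 6.05% and the ATF4 composite in 2.08% (1) beside 3.53%. All promoters here include those of genes that are not expressed in these cells.

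Tra2 proteins are relatives of the SR proteins that bind GA-rich exonic enhancers. Tra2a was higher with EnnA, at 203 FPKM in EnnA cells, against 148.7 FPKM in DMSO cells (log2 change 0.45, implied SE 0.15). Tra2b had 62.7 FPKM in EnnA cells and 51.4 FPKM in DMSO cells and did not pass the test (0.28, implied SE 0.15). With 17-AAG neither was called: Tra2a had 162.4 FPKM in 17-AAG cells and 162.9 FPKM in DMSO cells, and Tra2b had 48.7 FPKM in 17-AAG cells and 56.4 FPKM in DMSO cells.

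Among the 18 hnRNP genes, which coat RNA precursors and steer splicing, export and stability, 5 were lower and 1 was higher with EnnA. The A and B group, whose proteins bind exonic silencers, held 3 of the lower genes among its 5 members. Hnrnpa1, its best-studied member, had 35.4 FPKM in EnnA cells, against 81.4 FPKM in DMSO cells, the largest fall of all 55 genes (log2 change -1.18, implied SE at most 0.29). Hnrnpa0, an AU-rich element binding protein, had 34.9 FPKM in EnnA cells, against 58.6 FPKM in DMSO cells (-0.73, implied SE at most 0.18). Hnrnpa2b1, the most abundant member, had 527 FPKM in EnnA cells, against 857.4 FPKM in DMSO cells (-0.70, implied SE at most 0.17). Hnrnph1, which binds runs of guanine (log2 change -0.60, implied SE at most 0.15), and Hnrnpm (-0.54, implied SE at most 0.13) were lower as well. Hnrnpc, which binds uridine tracts and keeps U2AF from cryptic acceptor sites, was the only hnRNP gene called higher with EnnA, with 316.7 FPKM in EnnA cells, against 210.4 FPKM in DMSO cells (0.59, implied SE 0.16). RefSeq names copies of the Hnrnpa1 gene, and how reads with several matches were counted is not given in the sources used here, so the Hnrnpa1 values are uncertain.

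The remaining 12 hnRNP genes did not pass the test with EnnA, and their log2 changes ranged from -0.36 (Hnrnph3, with an implied SE of 0.24, the widest of the group not called) to 0.29 (Hnrnpk). The locus of Hnrnph3 overlaps that of Rufy2, and the locus of Hnrnpk that of Rmi1, so both are uncertain. Hnrnpu, a nuclear scaffold protein, and its relatives Hnrnpul1 and Hnrnpul2 had changes of -0.22, -0.02 and -0.27. Hnrnpl, which binds CA repeats, stood at 0.23. Hnrnpf (-0.07), Hnrnpd (-0.03), which speeds decay of AU-rich transcripts, and Hnrnpr (-0.09) lay within an implied SE of 0.

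With 17-AAG 3 hnRNP genes were lower and 0 were higher by the authors' Cuffdiff q, with 4 and 2 at an unadjusted p under 0.05. Hnrnpa1 had 61.1 FPKM in 17-AAG cells, against 89.1 FPKM in DMSO cells (log2 change -0.54, implied SE 0.20), and Hnrnpa2b1 had 692.3 FPKM in 17-AAG cells, against 939.4 FPKM in DMSO cells (-0.44, implied SE 0.16). The third was Hnrnpab, with 156.7 FPKM in 17-AAG cells, against 221.4 FPKM in DMSO cells (-0.50, implied SE 0.15), in a locus shared with Agxt2l2 that makes it uncertain. Hnrnpa3 (0.49, implied SE 0.21, locus shared with Gm6793) and Hnrnpul1 (0.33, implied SE 0.14) had the largest positive changes of the family and did not pass the test. Hnrnpa1 and Hnrnpa2b1 were therefore called lower in both tables, which share their DMSO libraries. Relative to the median of their decile of mean FPKM, their changes with 17-AAG were -0.34 and -0.16.

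**Figure D3:**
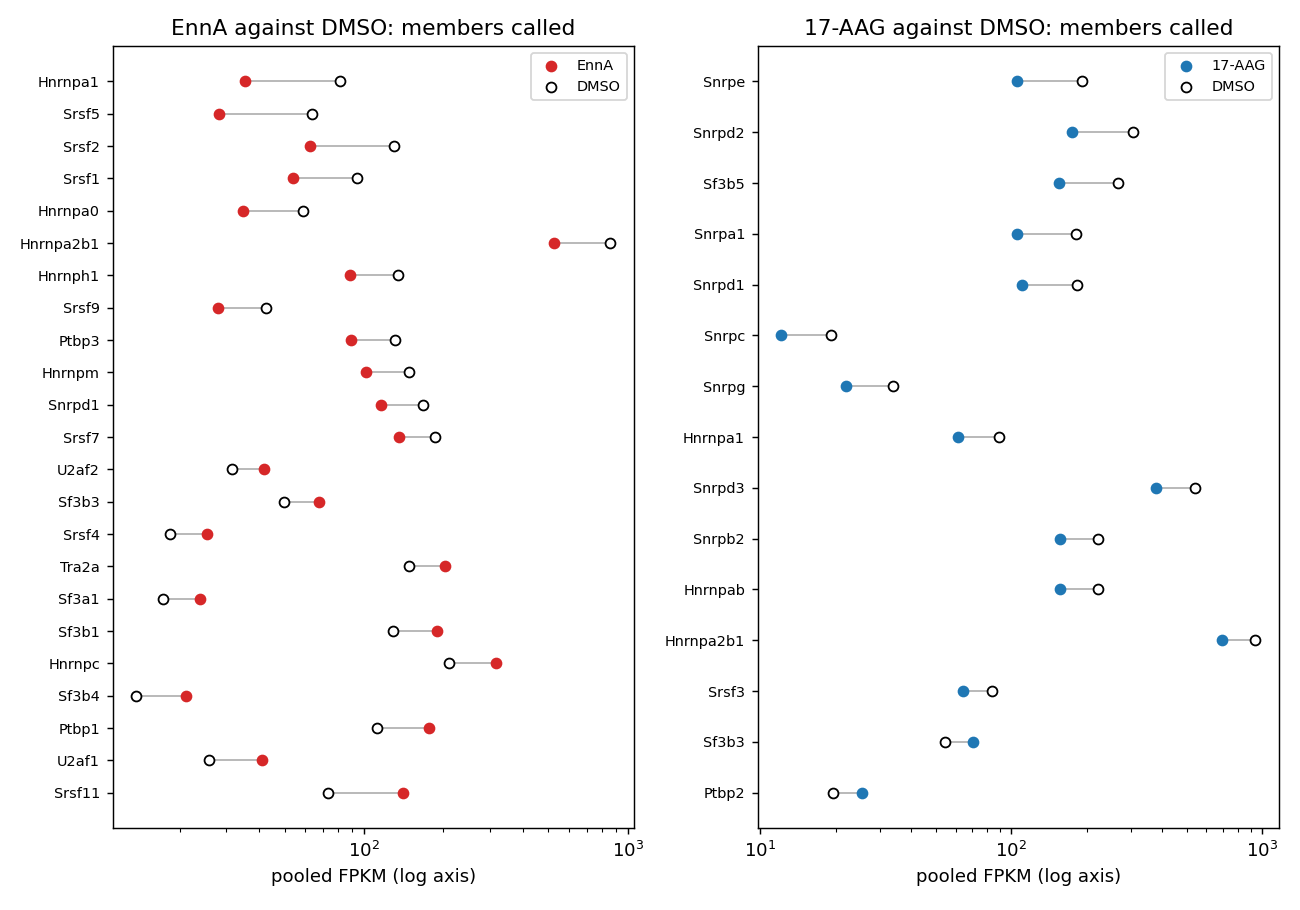
Pooled FPKM on a log axis of each member called at q under 0.05, compound (filled) and DMSO (open), for EnnA on the left (23 genes) and 17-AAG on the right (15 genes), each from its own table. The 12 genes lower with EnnA and the 13 lower with 17-AAG have the filled point left of the open one.

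Polypyrimidine tract binding proteins repress exons next to pyrimidine-rich tracts, and the 3 paralogues differed in direction with EnnA. Ptbp1, the form of most non-neuronal cells, had 176.3 FPKM in EnnA cells, against 111.7 FPKM in DMSO cells (log2 change 0.65, implied SE at most 0.16). Ptbp3 had 89.3 FPKM in EnnA cells, against 130.9 FPKM in DMSO cells (-0.55, implied SE 0.15). Ptbp2, known from neurons, had 22.3 FPKM in EnnA cells and 17.7 FPKM in DMSO cells and was not called (0.31, implied SE 0.15). One neuronal marker of 4 was listed, Tubb3, called lower with EnnA at 1.28 FPKM in EnnA cells and 7.63 FPKM in DMSO cells, and lower with 17-AAG at 6.19 FPKM in 17-AAG cells and 8.36 FPKM in DMSO cells. With 17-AAG Ptbp2 was higher, at 25.4 FPKM in 17-AAG cells, against 19.4 FPKM in DMSO cells (0.37, implied SE 0.15), while Ptbp1 (-0.04) and Ptbp3 (-0.18) were not called. In the 17-AAG table the locus of Ptbp1 overlaps that of E130317F20Rik.

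U2AF recognises the acceptor site, the large subunit (U2af2) at the pyrimidine tract and the small subunit (U2af1) at the terminal AG. Both were higher with EnnA. U2af1 had 41.1 FPKM in EnnA cells, against 25.7 FPKM in DMSO cells (log2 change 0.66, implied SE at most 0.16), and U2af2 had 41.8 FPKM in EnnA cells, against 31.7 FPKM in DMSO cells (0.39, implied SE 0.15). U2af1l4, a paralogue of the small subunit, had 30.6 FPKM in EnnA cells and 23.9 FPKM in DMSO cells and was not called (0.35, implied SE 0.16). With 17-AAG none of the 3 was called by the authors' Cuffdiff q, nor had any an unadjusted p under 0.05, with log2 changes of -0.19 for U2af1, 0.13 for U2af2 and -0.27 for U2af1l4.

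SF3a and SF3b are the protein complexes that seat U2 snRNP on the branch point. Of their 8 listed subunits 4 were higher and 0 were lower with EnnA by the authors' Cuffdiff q (4 and 1 at an unadjusted p under 0.05), with a median log2 change of 0.32. Sf3b4 had 21.1 FPKM in EnnA cells, against 13.7 FPKM in DMSO cells (0.59, implied SE 0.16). Sf3b1, the branch point clamp that is recurrently mutated in human cancers, had 189.3 FPKM in EnnA cells, against 129 FPKM in DMSO cells (0.55, implied SE 0.15). Sf3a1 (0.45) and Sf3b3 (0.43), which was also called higher with 17-AAG (0.36, implied SE 0.14), rose by similar amounts. Sf3a2 (0.22), Sf3b2 (0.06), Sf3b5 (-0.13) and Sf3a3 (-0.30) did not pass the test with EnnA.

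Within the same complex Sf3b3 and Sf3b5, a small subunit of SF3b, differed in direction with 17-AAG. Sf3b3 had 70.5 FPKM in 17-AAG cells, against 54.7 FPKM in DMSO cells. Sf3b5 had 155.8 FPKM in 17-AAG cells, against 266.7 FPKM in DMSO cells (log2 change -0.77, implied SE at most 0.19). The other 6 subunits ranged from -0.25 (Sf3a3) to 0.28 (Sf3b1) and were not called. Relative to the median of their own decile of mean FPKM, the changes with 17-AAG were 0.56 for Sf3b3 and -0.49 for Sf3b5.

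The 11 Snrp genes encode the 7 proteins of the Sm ring (Snrpb, Snrpd1, Snrpd2, Snrpd3, Snrpe, Snrpf, Snrpg), which is assembled on the RNA of the snRNPs in the cytoplasm, the U1 proteins Snrpa and Snrpc, and the U2 proteins Snrpa1 and Snrpb2. With 17-AAG 8 of the 11 were lower and 0 were higher by the authors' Cuffdiff q (9 and 0 at an unadjusted p under 0.05), with a median log2 change of -0.61. In the Sm ring 5 of 7 were lower. Snrpe had 105.3 FPKM in 17-AAG cells, against 192.2 FPKM in DMSO cells (log2 change -0.86, implied SE at most 0.21), and Snrpd2 had 174.3 FPKM in 17-AAG cells, against 304.9 FPKM in DMSO cells (-0.80, implied SE at most 0.20). Snrpd1 had 110.6 FPKM in 17-AAG cells, against 183.6 FPKM in DMSO cells (-0.73, implied SE at most 0.18). Snrpg (-0.61) and Snrpd3 (-0.53) completed the lower ring genes, and Snrpf (-0.35, implied SE 0.17, locus shared with Ccdc38) and Snrpb (-0.17, implied SE 0.15) did not pass the test.

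Both U2 proteins were lower with 17-AAG. Snrpa1 had 105.7 FPKM in 17-AAG cells, against 180.6 FPKM in DMSO cells (log2 change -0.77, implied SE at most 0.19), and Snrpb2 had a change of -0.51 (implied SE 0.14). Of the U1 proteins, Snrpc had 12.1 FPKM in 17-AAG cells, against 19.1 FPKM in DMSO cells (-0.61, implied SE 0.17), whereas Snrpa had 43 FPKM in 17-AAG cells and 42.9 FPKM in DMSO cells. RefSeq names pseudogene copies of Snrpc under Snrp1c, and the locus of Snrpa overlaps that of BC024978, so both are uncertain.

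Most Snrp transcripts are shorter than the median gene's, and short or abundant transcripts were more often lower than higher with 17-AAG over all listed genes. The median length of the longest protein-coding transcript in GENCODE M21 was 1161 bases over the Snrp genes and 3068 bases over all matched genes. In the shortest decile of length the median log2 change of all genes was -0.30 with 17-AAG, and in the longest decile it was 0.17. In the shortest 2 deciles of length 32.0% of all genes were called lower and 8.17% higher with 17-AAG, and 19.9% lower and 27.3% higher with EnnA. Of the 767 genes in both the shortest 2 deciles of length and the top 2 deciles of mean FPKM, 52.0% were called lower and 2.74% higher. Of the Snrp genes 6 lay in that class (Snrpa1, Snrpb, Snrpd1, Snrpd2, Snrpe and Snrpf), and 4 of these were lower. The other 5 Snrp genes (Snrpa, Snrpb2, Snrpc, Snrpd3 and Snrpg) lay outside it, and 4 of them were lower too. Each of these 5 had 1 of the 2 traits, including Snrpa, which was not called. Snrpa, at 1365 bases, lay in the shortest 2 deciles of length. Snrpc and Snrpg, at 1013 and 1055 bases, lay in the shortest decile of length, and Snrpb2 and Snrpd3 in the top decile of mean FPKM. In that top decile 39.3% of all genes were called lower with 17-AAG. The share called lower among all genes outside the class was not computed. Relative to the median of their own decile of length the Snrp genes had a median change of -0.41, and relative to their own decile of mean FPKM -0.44. How far length or level had a part in the Snrp result was not tested further.

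With EnnA 1 of the 11 Snrp genes was called. Snrpd1 was lower, with 116.2 FPKM in EnnA cells, against 167.6 FPKM in DMSO cells (log2 change -0.52, implied SE 0.15), and the other 10 ranged from -0.32 (Snrpd3) to 0.33 (Snrpc). By the authors' Cuffdiff q 0 were higher, and 0 had a positive change with an unadjusted p under 0.05.

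**Figure D4:**
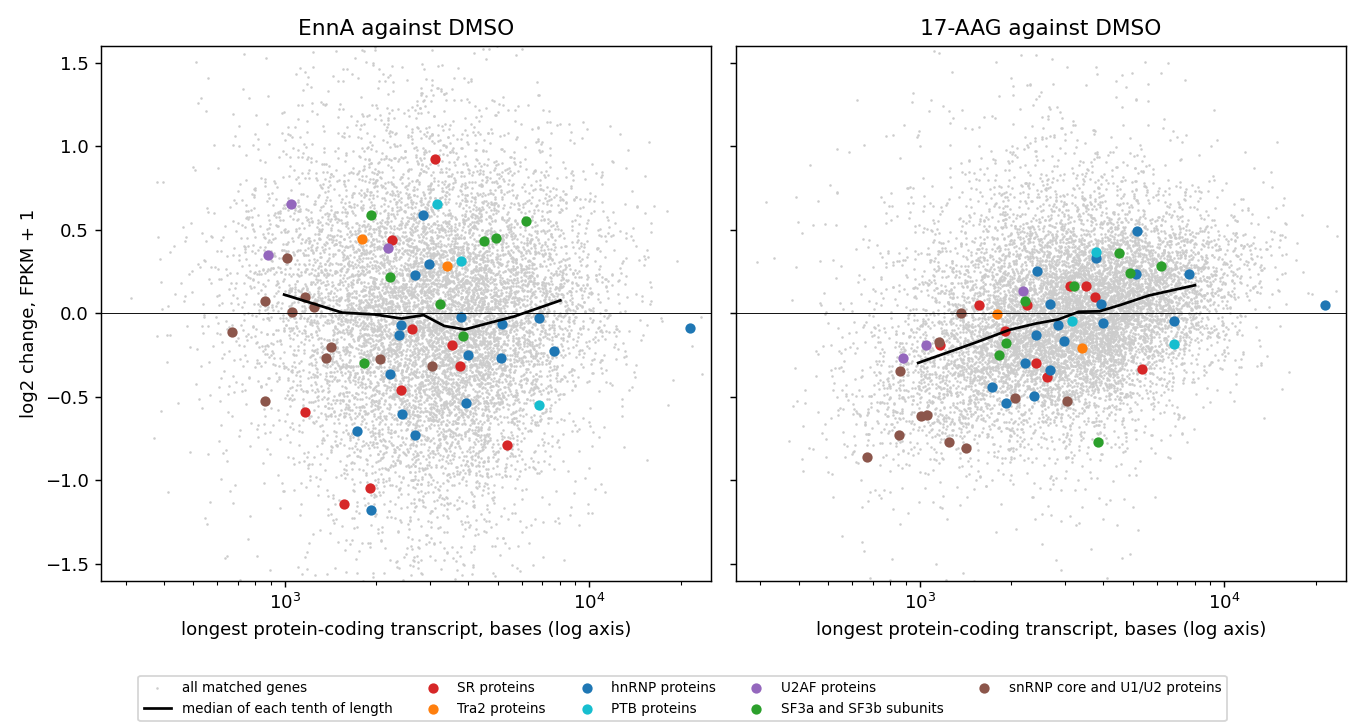
Log2 change (FPKM + 1) against the length of the longest protein-coding transcript on a log axis, for matched genes within the axes (grey), with the median of each decile of length (line) and the 55 members coloured by family. With 17-AAG the line goes from -0.30 in the shortest decile to 0.17 in the longest, and 8 Snrp points lie at -0.51 or below.

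The windows before the start sites of the Snrp genes lowest with 17-AAG, Snrpe (chr1:133610281-133610530, minus strand) and Snrpd2 (chr7:19149588-19149837, plus strand), are given in the same way.
Snrpe: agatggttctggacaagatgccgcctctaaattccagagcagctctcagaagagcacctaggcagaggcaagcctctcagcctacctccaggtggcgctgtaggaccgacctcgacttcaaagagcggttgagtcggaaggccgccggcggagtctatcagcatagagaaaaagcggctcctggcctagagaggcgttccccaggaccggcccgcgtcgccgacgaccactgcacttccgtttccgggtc
Snrpd2: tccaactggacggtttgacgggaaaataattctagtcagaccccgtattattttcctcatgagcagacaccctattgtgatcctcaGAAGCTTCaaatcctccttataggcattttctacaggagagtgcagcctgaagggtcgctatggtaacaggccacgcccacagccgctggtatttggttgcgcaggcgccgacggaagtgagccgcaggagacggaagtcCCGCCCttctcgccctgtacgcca
Snrpe matched none of the 7 motifs in this window. Snrpd2 held a GC box and 1 match to the heat shock core, and of the 9 Snrp promoters that RefSeq lists here, 1 held that core and 5 held a GC box. Of all promoters 6.78% held the core and 32.9% a GC box. The part of either motif in the changes was not tested.

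Whether the compounds differed was tested gene by gene as the EnnA change minus the 17-AAG change, over 10932 genes listed in both tables, with a z test that combines the 2 implied errors and Benjamini-Hochberg adjustment. At an adjusted p under 0.05, 14 members had a higher change and 6 a lower change with EnnA than with 17-AAG, 36.4% of the 55, where 37.9% of all genes were called (19.3% higher and 18.6% lower). The share was again close to that of all genes. Genes with a lower change with EnnA were Srsf5 (difference -1.19, SE at most 0.32), Srsf2 (-0.94, SE at most 0.29), Hnrnph1 (-0.86, SE at most 0.21), Hnrnpa0 (-0.78, SE at most 0.23), Hnrnpm (-0.59, SE at most 0.19) and Hnrnpul2 (-0.51, SE 0.20), all of them SR or hnRNP genes. Hnrnph1 had 88.2 FPKM in EnnA cells, against 134.6 FPKM in DMSO cells, but 175.9 FPKM in 17-AAG cells, against 147.5 FPKM in DMSO cells of that table.

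A higher change with EnnA was called for 5 Snrp genes, led by Snrpc (difference 0.95, SE 0.25) and Snrpa1 (0.81, SE at most 0.24). It was also called for U2af1 (0.84, SE at most 0.22) and U2af1l4 (0.61), for Sf3b4 (0.76, SE 0.22) and Sf3b5 (0.64), and for Srsf11, Ptbp1, Hnrnpc, Hnrnpl and Tra2b. Sf3b3, called higher with each compound, had a difference of 0.07 (SE 0.20), and Hnrnpa2b1, called lower with each, had one of -0.26 (SE at most 0.23). No member was called in opposite directions by the 2 tables. The count depends on how abundance is treated: with the median of each decile of mean FPKM subtracted, 3 members were higher and 18 lower, and 9 of the 20 calls were kept. With the median of each decile of transcript length subtracted, 7 were higher and 6 lower, and 12 of the 20 were kept. The 8 not kept were all 5 Snrp genes, U2af1, U2af1l4 and Hnrnpul2. Sf3b5 was kept, but its matched length of 3841 bases is longer than its whole deposited locus, so that call is uncertain.

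**Figure D5:**
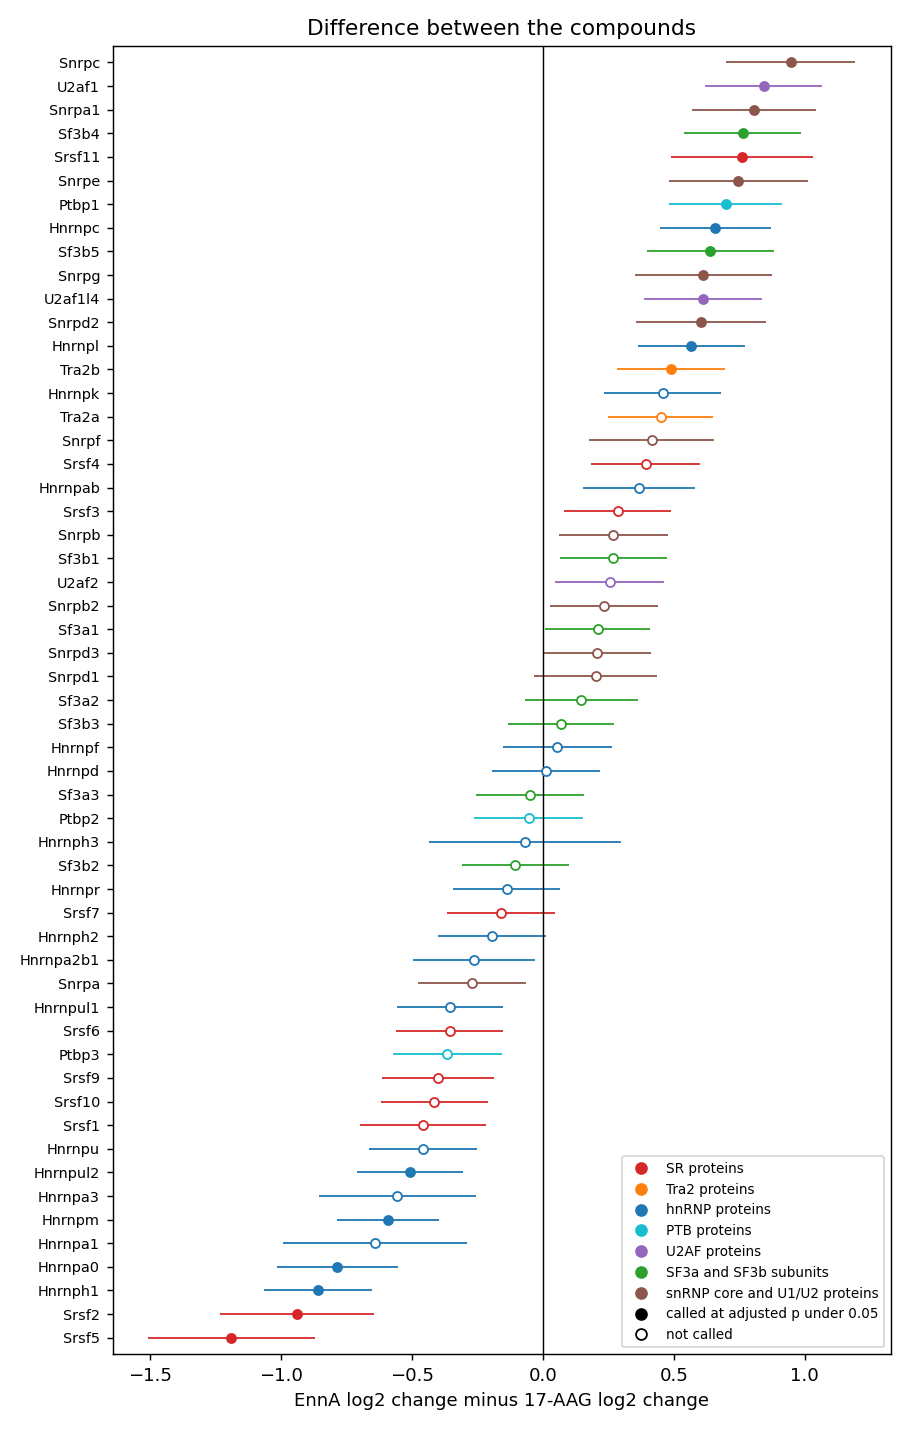
EnnA log2 change minus 17-AAG log2 change of the 55 genes, sorted, with the combined standard error; filled points are called at an adjusted p under 0.05. Values run from -1.19 (Srsf5) to 0.95 (Snrpc).

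The annotation of these genes differs from that of others in a way that may bear on gene-level values. In GENCODE M21, 30 of the 55 genes (54.5%) have a transcript annotated for nonsense-mediated decay, beside 29.0% of listed genes with an entry. The 55 genes also have more annotated transcripts of any kind (median 7, beside 5). A transcript with a retained intron is annotated for 78.2% of them, beside 59.7%. The part of annotation depth in the decay share was not tested. A transcript for nonsense-mediated decay is annotated for 9 of 10 SR genes and for all Tra2, Ptbp and U2AF genes. One is annotated for 8 of 18 hnRNP genes, 4 of 11 Snrp genes and 1 of 8 SF3 genes. An annotated transcript is not a measured one, and FPKM per gene does not separate it from the coding form.

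Of other genes that act in splicing, 181 were listed in 11 groups: 41 rose and 36 fell with EnnA, and 17 rose and 24 fell with 17-AAG. These were 42.5% called with EnnA, where 49.2% of all genes were (24.3% higher and 24.9% lower), and 22.7% called with 17-AAG, where 31.6% of all genes were (15.6% higher and 16.1% lower). The counts of the smaller groups that follow stand beside the same shares. Among kinases and phosphatases of SR proteins, 3 of 10 were higher and 1 lower with EnnA, and 4 were higher and 0 lower with 17-AAG by the authors' Cuffdiff q. Clk4, a nuclear kinase that phosphorylates SR proteins, had 106.7 FPKM in EnnA cells, against 37.1 FPKM in DMSO cells (implied SE of its log2 change at most 0.37), and 69.6 FPKM in 17-AAG cells, against 40.7 FPKM in DMSO cells (0.76, implied SE at most 0.19). Clk1 changed by 0.80 with EnnA and 0.45 with 17-AAG and was called in each table. Of 10 further U1 and donor site genes 4 were higher and 1 lower with EnnA, with Luc7l at 1.19 and Luc7l2 at 1.17. Of 39 listed regulators of alternative splicing 6 were higher and 14 lower with EnnA, with Rbm39 at 1.32 and the paraspeckle gene Pspc1 at -1.56, and 1 was higher and 3 lower with 17-AAG.

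Small proteins related to the Sm ring and further spliceosome parts can be set beside the Snrp genes. Of 12 Lsm genes, relatives of the Sm genes, 4 were lower and 0 higher with 17-AAG by the authors' Cuffdiff q, with Lsm3 at -0.91 and Lsm5 at -0.86, and 2 were higher and 4 lower with EnnA. Of 20 genes of the tri-snRNP, 2 were higher and 3 lower with 17-AAG, with Prpf8, the catalytic core protein, at 0.71 and Snrnp27 at -0.95, and 5 were higher and 2 lower with EnnA. Of 16 genes of snRNP assembly and import, 0 were higher and 2 lower with 17-AAG by the same q, with Gemin6, a member of the SMN complex that loads the Sm ring, at -0.88. With EnnA 5 of the 16 were higher and 4 lower, with Smn1 at 0.93, Gemin2 at 0.96 and Gemin4 at -1.40. Of 21 SR-related genes 7 were higher and 0 lower with 17-AAG, with Scaf4 at 0.51, and 5 were higher and 4 lower with EnnA. Of 26 genes of the Prp19 complex and the catalytic steps, 6 rose and 2 fell with EnnA, and 7 fell with 17-AAG. Of 11 further U2 and branch point genes, 3 rose and 2 fell with EnnA, and 2 rose with 17-AAG. Of 10 minor spliceosome genes, 2 rose and 1 fell with EnnA, and 3 fell with 17-AAG. Of 7 exon junction genes, 1 fell with EnnA and 2 fell with 17-AAG.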

How the data were processed

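The submitters' processing notes name STAR, Cufflinks, Cuffdiff and the build mm9, with no version. For each compound the authors deposited a table, with FPKM pooled over 2 libraries per group, a log2 ratio of DMSO over compound, a p-value and a q-value. Values are read as FPKM from the Cuffdiff layout of the file headers. The deposited q-value was found to equal a Benjamini-Hochberg adjustment of the p-value over all genes listed.

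Changes were computed as log2((compound + 1)/(DMSO + 1)), which understates the change of low genes; the largest gap of a member to the deposited log2 ratio was 0.043. Each standard error was taken as the change over the normal quantile that fits the deposited 2-sided p, an upper limit for genes at the lowest p of 5e-05 (11 members with EnnA, 5 with 17-AAG). The difference between compounds combined both errors as if independent, although DMSO is shared, and its test was tried on simulated data over 10932 genes, where 20% of genes with a 1.5-fold, 82% with a 2-fold, 100% with a 4-fold and 96% with an 8-fold difference were recovered, with Python 3.11.15 and scipy 1.17.1. The test rests on a normal approximation. The simulation drew the 2 changes independently and without the lowest p of 5e-05, so its rates need not hold for these data. Depth per library is unknown, and the labels do not say whether libraries came from separate cultures, so a p-value covers only the spread between these samples, which may be technical.

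Members and lists were chosen with earlier results of these data known. Members accounted for by family were named in full where they were among the 5 largest called changes in a direction, in the U2AF, Ptbp or Tra2 families, called in opposite directions (0 members), or among the 3 highest or lowest DMSO levels; others were named after their values were seen. Loci of 7 members overlap another listed gene. Transcript lengths from GENCODE M21 were matched by symbol for 91.2% and 91.0% of genes listed and for all 55 members. The longest transcript need not be the gene model that was quantified. For Sf3b5 the matched length of 3841 bases is longer than its whole deposited locus, so its decile of length is uncertain. Coordinates are given in GRCm38.p6 for promoters alone and were not mixed with mm9.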

Additional observations from a re-analysis of the deposited data

Results flagged for a closer look

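The log2 changes with EnnA and with 17-AAG differed, at an adjusted p under 0.05 in the z test of the difference, for 20 of the 55 genes. The EnnA change minus the 17-AAG change was below 0 for Srsf5 (-1.19), Srsf2 (-0.94), Hnrnph1 (-0.86), Hnrnpa0 (-0.78), Hnrnpm (-0.59) and Hnrnpul2 (-0.51). It was above 0 for the snRNP genes Snrpd2 (0.60), Snrpg (0.61), Snrpe (0.75), Snrpa1 (0.81) and Snrpc (0.95), and for Tra2b (0.49), Hnrnpl (0.57), U2af1l4 (0.61), Sf3b5 (0.64), Hnrnpc (0.66), Ptbp1 (0.70), Srsf11 (0.76), Sf3b4 (0.76) and U2af1 (0.84). Abundant genes had a median change above 0 in the EnnA comparison and below 0 in the 17-AAG comparison. The loss of calls when the median of the same decile of mean FPKM is subtracted touches Hnrnpc, Hnrnpl, Ptbp1, Sf3b5, Snrpa1, Snrpd2, Snrpe, Snrpg, Srsf11, Tra2b and U2af1l4. When the median of the same decile of transcript length is subtracted, the calls of Hnrnpul2, Snrpa1, Snrpc, Snrpd2, Snrpe, Snrpg, U2af1 and U2af1l4 are lost.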

How the results depend on the processing

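Counts of called members kept within 1.5 times of their value without the 7 members that share a locus. A minimum of 1 FPKM could not change the counts, because all 55 members were at 1 FPKM or more in every group. Recomputing q from the authors' p could not change them either, because the deposited q already equals that adjustment. With a minimum change of 2-fold, 0 members were higher and 3 lower with EnnA (Hnrnpa1, Srsf5 and Srsf2, where 8.32% of all genes passed), and 0 were higher and 0 lower with 17-AAG (2.31% of all genes), beside 13 and 15 members at an unadjusted Cuffdiff p under 0.05 with EnnA and 5 and 17 with 17-AAG. At a q under 0.01, 0 members were higher with 17-AAG. Subtracting the median of the same decile of mean FPKM moved the members' median log2 change to -0.26 with EnnA and to 0.10 with 17-AAG. For the difference between compounds, 6 members were higher at an adjusted p under 0.01, 3 higher and 18 lower after the same subtraction, and 7 higher after subtracting the median of the same decile of transcript length, an alternative chosen after seeing the data. No called member among those named in full changed sign under another pseudocount, centring, or the subtraction by level or length. Sizes did change with the subtraction by level. Hnrnpa2b1 with 17-AAG went from -0.44 to -0.16 (implied SE 0.16) and Tra2a with EnnA from 0.45 to 0.22 (implied SE 0.15). Others grew, such as Hnrnpa1 with EnnA, from -1.18 to -1.35. No paired analysis was possible because the deposited values are pooled over both libraries of a group; for the same reason no replicate could be left out. Depth per library is unknown, so what depth limits cannot be stated beyond the implied errors.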
